A study of Mus musculus with 12 samples.

Results

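The genes described here are 10 markers of Ly6C-low patrolling monocytes: Nr4a1, Ace, Treml4, Cx3cr1, Cd36, Itgax, Spn, Cd300e, Eno3 and Adgre4. They were chosen by name as known markers of these cells, with earlier results of these data known, and matched to the array by Entrez number. All 10 were measured, among 23279 genes with a symbol. The series holds 12 arrays of inflammatory blood monocytes of C57BL/6 LyzCre mice, 6 to 8 weeks old; in LyzCre mice the lysozyme gene drives Cre recombinase in myeloid cells. The genotype label was TRIM33 on 6 arrays and WT on 6; TRIM33 is a chromatin-binding cofactor of SMAD proteins, and all 12 arrays carry the LyzCre strain label, with no further word on the alleles of the WT mice. The gate took CD11b+ CD115+ cells with high Ly6C, a gate for cells other than those these genes mark. By their titles, 2 arrays of either genotype are mixes, and the other 4 have titles that say nothing of mixing. The labels do not say that arrays are separate animals, so p-values reflect only how these arrays vary, in part perhaps for technical reasons, and the number of arrays limits the precision.

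Blood monocytes of the mouse fall into Ly6C-high cells, which leave the blood for inflamed tissue, and Ly6C-low cells, which crawl along the inside of vessels and clear debris. Most Ly6C-low cells derive from Ly6C-high cells in the blood, and this conversion and the survival of the product need the orphan nuclear receptor Nr4a1. Ly6C-low cells are known for more surface CX3CR1, CD43, CD11c and CD36 and for the transcripts Ace, Treml4, Cd300e, Eno3 and Adgre4.

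The arrays formed 2 sets of 6 that cut across genotype, with 3 TRIM33 and 3 WT arrays in each. In the first, called the Xist set, Xist lay above the Y-linked Eif2s3y (9.01 to 10.18 against 2.19 to 2.89, log2), and in the second, the Y set, below it (3.36 to 3.64 against 8.09 to 8.47). Average-linkage clustering of all features other than the markers gave the same sets. The mean of 18 cell cycle genes was 9.22 to 9.31 for Xist-set arrays and 4.86 to 5.76 for Y-set arrays, all 4 mixes lie in the Y set, and these differences cannot be told apart from each other. Of the genes for the gated antigens, Ly6c2 lay at 12.20 to 12.55 on all arrays, Itgam (CD11b) at 9.40 to 10.68 and Csf1r (CD115) at 9.73 to 11.09, the latter pair wholly higher in the Y set. Trim33 read 6.06 to 6.23 on the TRIM33 arrays and 6.81 to 7.05 on the WT arrays, without overlap (limma, genotype alone, fell by 0.79, SE 0.067, adjusted p = 0.000637); where its probes lie relative to the deleted part was not tested. Array medians were 4.16 to 4.25, and values near them carry little signal over background.

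For 9 of 10 markers, all but Cd300e, the means of the array sets lay further apart than those of the genotypes. In 7 of 10, all 6 Y-set arrays lay above all 6 Xist-set arrays, which holds for 6.59% of all genes tested; in 0 of 10 did the Y set lie wholly below, against 7.45% of all genes. The median difference between sets (Y minus Xist) was 1.53 on the log2 scale over the markers and -0.0015 over all genes. These differences are descriptions with no test, because the sets differ in sex-linked genes, cell cycle genes and title together. In sorted cells measured in bulk, fewer cells of a type and less RNA per cell cannot be told apart.

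**Figure D1:**
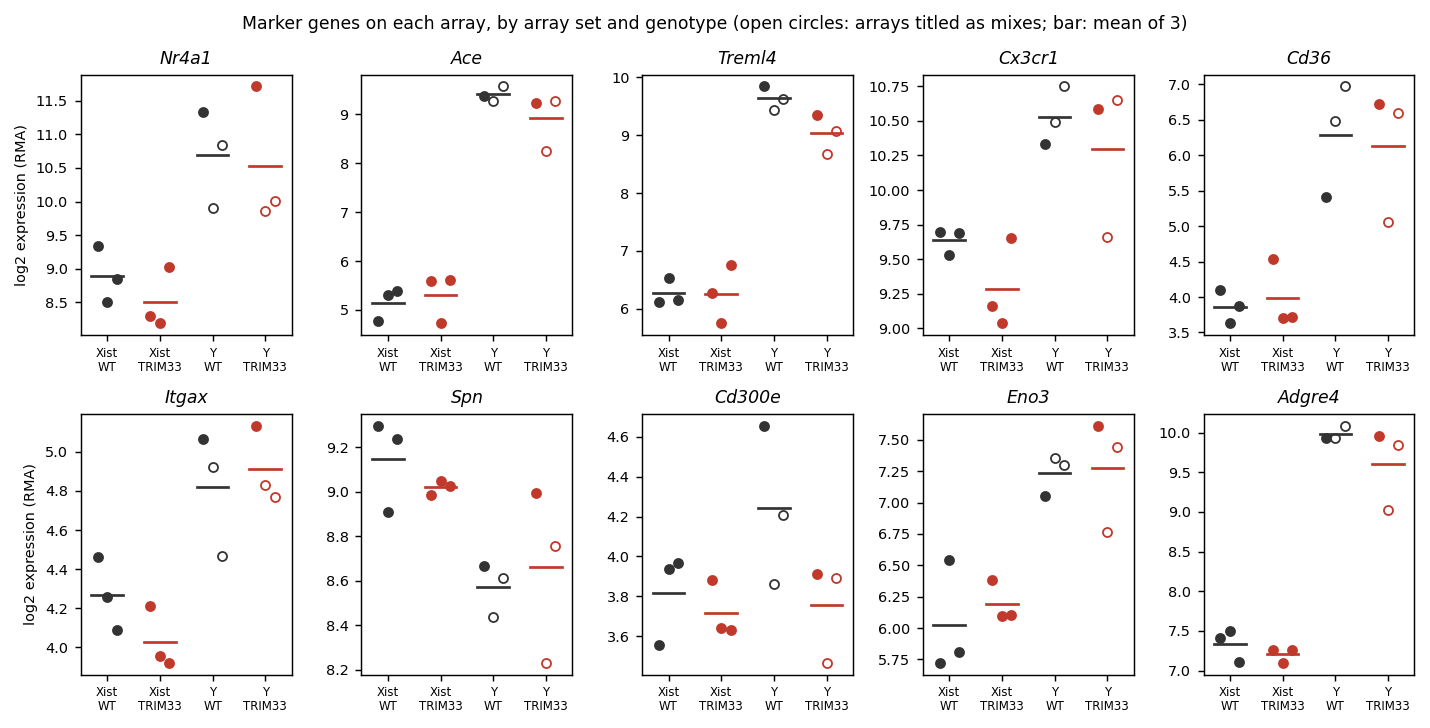
Log2 expression of the 10 markers on each array, by array set and genotype; each point is an array, open circles are arrays titled as mixes, and bars are means of 3 arrays. Ace, Treml4, Adgre4, Cd36, Nr4a1, Eno3 and Itgax lie higher on all 6 Y-set arrays, while within a set the genotypes mostly overlap.

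The 250 bases before the RefSeq start site are shown for the fate regulator Nr4a1, for the markers that differed most between sets, Ace and Treml4, and for Spn, which ran the other way. The build is GRCm38.p6, each is written 5′ to 3′ on the strand of the gene, and capitals mark matches to the motifs searched. Nr4a1 lies at chr15:101266596-101266845 on the plus strand, Ace (the upstream of its 2 start sites) at chr11:105967698-105967947 on the plus strand, Treml4 at chr17:48264045-48264294 on the plus strand and Spn at chr7:127137824-127138073 on the minus strand.
Nr4a1: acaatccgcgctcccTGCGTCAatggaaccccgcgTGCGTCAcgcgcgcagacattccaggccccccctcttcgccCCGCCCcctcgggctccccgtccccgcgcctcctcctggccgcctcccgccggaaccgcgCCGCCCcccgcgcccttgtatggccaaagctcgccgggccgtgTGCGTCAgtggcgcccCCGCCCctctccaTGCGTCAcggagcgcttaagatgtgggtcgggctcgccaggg
Ace: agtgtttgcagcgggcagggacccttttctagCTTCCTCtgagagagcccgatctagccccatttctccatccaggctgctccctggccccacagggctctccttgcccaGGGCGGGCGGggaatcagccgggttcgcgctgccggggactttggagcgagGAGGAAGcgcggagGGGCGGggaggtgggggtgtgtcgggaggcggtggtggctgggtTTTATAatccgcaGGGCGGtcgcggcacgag
Treml4: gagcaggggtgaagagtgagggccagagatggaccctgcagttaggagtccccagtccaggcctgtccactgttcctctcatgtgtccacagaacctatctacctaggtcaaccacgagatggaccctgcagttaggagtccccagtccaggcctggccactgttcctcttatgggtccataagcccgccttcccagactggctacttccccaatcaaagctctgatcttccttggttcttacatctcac
Spn: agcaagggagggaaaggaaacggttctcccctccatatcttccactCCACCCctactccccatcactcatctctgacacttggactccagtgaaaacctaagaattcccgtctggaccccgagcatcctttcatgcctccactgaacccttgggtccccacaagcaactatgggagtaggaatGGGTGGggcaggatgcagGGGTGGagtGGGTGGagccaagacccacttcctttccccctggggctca

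The motifs, searched on both strands over the 250 bases before each of 11 start sites of the 10 genes and of 32851 start sites in all, were the NR4A response element AAAGGTCA, the cyclic AMP response element TGACGTCA, the GC box GGGCGG, the CACCC box CCACCC, the PU.1 core GAGGAAG, the C/EBP palindrome TTGCGCAA, the SMAD palindrome GTCTAGAC and the TATA element TATAAA. GC boxes stood before 3 of the 11 sites (Nr4a1, Ace and Cd36), against 32.7% of all sites, and CACCC boxes before 4 (the second Ace site, Cx3cr1, Spn and Eno3), against 28.1%. Spn held 4 CACCC boxes, 3 of them within 67 bases of the start. The PU.1 core and the TATA element matched before Ace alone, against 10.6% and 12.4% of all sites, the latter on the opposite strand; overlapping matches were counted, as for the adjoining GC boxes of Ace. The AAAGGTCA, TGACGTCA, TTGCGCAA and SMAD letters matched before 0 of 11 sites and before 1.34%, 1.55%, 0.164% and 0.167% of all sites. The AP-1-like element TGCGTCA, for which the Nr4a1 promoter is known, was added after the sequence was seen: it matched 4 times before Nr4a1, at 235, 215, 71 and 42 bases before the start, before 0 of the other sites, and before 1.75% of all sites. Treml4, Itgax, Cd300e and Adgre4 held none of these letters in this window.

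Nr4a1, the nuclear receptor that Ly6C-low monocytes depend on, is also an immediate early gene, switched on within minutes of a stimulus. It read 9.33, 8.50 and 8.84 on the WT arrays of the Xist set and 8.29, 8.18 and 9.03 on its TRIM33 arrays (replicate order, log2). In the Y set it read 11.34, 9.90 and 10.85 on WT arrays and 11.72, 9.86 and 10.0001 on TRIM33 arrays. All Y-set arrays were above all Xist-set arrays, and the means were 10.6 ± 0.807 and 8.70 ± 0.449 (SD, n = 6), a 3.77-fold difference. The highest arrays, TRIM33 replicate 1 and WT replicate 4, are those of the Y set not titled as mixes; the 4 mixes lay between 9.86 and 10.85.

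The mean of 25 immediate early genes, Nr4a1 not among them, ranked the arrays much as Nr4a1 did. It was 8.33 on TRIM33 replicate 1, 8.36 on WT replicate 4 and 7.93 on WT replicate 6, the arrays with the most Nr4a1, and 7.39 to 7.50 on the other mixes. In the Xist set it was 6.93 to 7.30, with WT replicate 1 highest for both. Of these 25 genes 22 had a higher mean in the Y set, 6 lay wholly above and 1 wholly below. Heat shock genes did not follow: their mean of 10 genes was 7.16 on TRIM33 replicate 1 and 8.11 on WT replicate 4, the lowest and the highest of all arrays. The part of this early response in the Nr4a1 values was not tested.

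**Figure D2:**
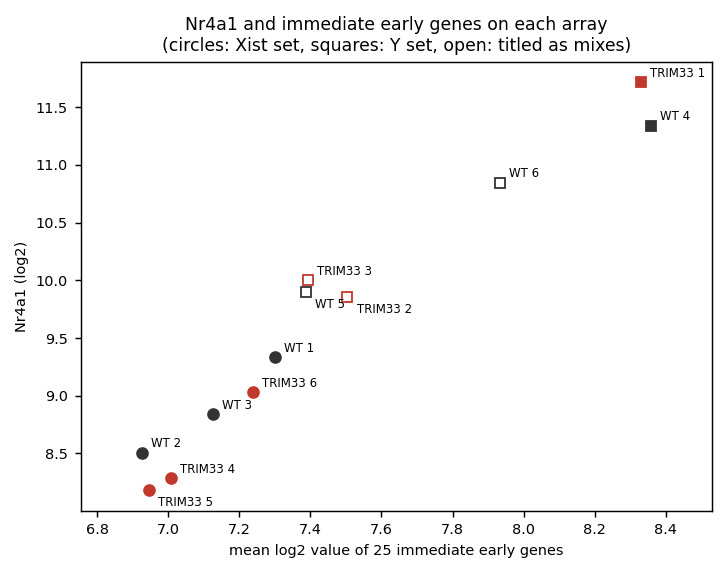
Nr4a1 against the mean of 25 immediate early genes, both in log2, 1 point per array. TRIM33 replicate 1 and WT replicate 4 are the highest for Nr4a1 and for the list, at 11.72 and 11.34 for Nr4a1.

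Ace, the angiotensin-converting enzyme, a peptidase on the cell surface, differed the most between the sets. It read 4.78, 5.30 and 5.38 on WT and 5.58, 4.72 and 5.61 on TRIM33 arrays of the Xist set, and 9.38, 9.28 and 9.58 on WT and 9.23, 8.25 and 9.27 on TRIM33 arrays of the Y set. No array lay between 5.61 and 8.25, and the set means were 5.23 ± 0.388 and 9.17 ± 0.464 (SD, n = 6), a 15.3-fold difference. Only 8 of 23279 genes, Ace included, differed by as much in this direction. Within the Y set TRIM33 replicate 2 differed by -1.10 from the mean of the other 5 arrays.

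Treml4, a receptor of the TREM-like family, was the second of the markers in size. It read 6.11, 6.54 and 6.16 on WT and 6.28, 5.75 and 6.75 on TRIM33 arrays of the Xist set, and 9.85, 9.44 and 9.63 on WT and 9.35, 8.68 and 9.07 on TRIM33 arrays of the Y set. The set means were 6.26 ± 0.352 and 9.33 ± 0.415 (SD, n = 6), an 8.40-fold difference matched by 13 genes, Treml4 included. In the Y set its TRIM33 arrays lay below its WT arrays without overlap.

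Adgre4, an adhesion-type G protein-coupled receptor of the EMR family, was tight in the Xist set. Its values there were 7.41, 7.50 and 7.10 on WT and 7.26, 7.10 and 7.26 on TRIM33 arrays. In the Y set 5 arrays lay between 9.84 and 10.09, and TRIM33 replicate 2 read 9.02. The set means were 7.27 ± 0.160 and 9.80 ± 0.387 (SD, n = 6), a 5.75-fold difference.

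Cd36, a scavenger receptor for oxidised lipids and dying cells, was near the array median in the Xist set and spread widely over the Y set. It read 4.10, 3.63 and 3.87 on WT and 4.53, 3.71 and 3.72 on TRIM33 arrays of the Xist set, and 5.41, 6.48 and 6.97 on WT and 6.72, 5.06 and 6.60 on TRIM33 arrays of the Y set. The set means were 3.93 ± 0.341 and 6.21 ± 0.779 (SD, n = 6), a 4.85-fold difference. CD36 is carried by platelets too. The mean of 11 platelet genes ran from 3.99 to 4.24 over the Xist set and from 4.66 to 5.61 over the Y set. Of the 11, 9 had a higher mean in the Y set and 4 lay wholly above. The largest rises were those of Ppbp (mean 3.57 in the Xist set and 8.24 in the Y set) and Pf4 (3.98 and 6.42), named after their values were seen. Within the Y set the platelet means were 5.04, 5.04 and 5.47 on WT arrays and 4.66, 5.42 and 5.61 on TRIM33 arrays. They stand in replicate order, as do the Cd36 values above. The mean of 6 erythroid genes was also higher in the Y set, at 3.40 to 3.99 over the Xist set and 6.05 to 7.40 over the Y set. Of the 6, 4 lay wholly above, while Epor (-0.03) and Klf1 (-0.14) had lower means there with overlap. The part of either cell type in Cd36 was not tested.

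Cx3cr1, the fractalkine receptor that holds patrolling cells on the vessel wall, was high on all arrays. It read 9.70, 9.53 and 9.69 on WT and 9.16, 9.04 and 9.65 on TRIM33 arrays of the Xist set, and 10.34, 10.49 and 10.75 on WT and 10.59, 9.66 and 10.65 on TRIM33 arrays of the Y set. The set means were 9.46 ± 0.289 and 10.4 ± 0.394 (SD, n = 6), a 1.93-fold difference, and the sets overlapped only through TRIM33 replicate 2. Without that array the lowest Y-set value was 10.34, and 8 of 10 markers lay wholly above in the Y set, against 7.39% of all genes on the same arrays. Eno3, the muscle-type enolase of glycolysis, lay between 5.72 and 6.55 in the Xist set and between 6.77 and 7.61 in the Y set, a 2.21-fold difference of means.

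Itgax, the CD11c integrin subunit, was dim. Xist-set arrays lay between 3.92 and 4.46 and Y-set arrays between 4.47 and 5.13, so the sets nearly touched but did not overlap, with means of 4.15 ± 0.203 and 4.86 ± 0.238 (SD, n = 6). CD11c also marks dendritic cells. The mean of 15 dendritic cell genes ran from 5.29 to 5.77 over the Xist set and from 6.20 to 7.001 over the Y set, and 8 of the 15 lay wholly above. These were Flt3 (mean 5.31 in the Xist set and 6.79 in the Y set), Batf3 (5.77 and 7.95), Dpp4 and the class II pathway genes H2-Aa (6.75 and 10.1), H2-Ab1, H2-Eb1, Cd74 and Ciita. Of other defining genes, Clec9a averaged 4.64 and 4.56, Zbtb46 3.72 and 3.69 and Xcr1 3.48 and 3.53, the latter pair below the array medians; Flt3, Dpp4, H2-Ab1, H2-Eb1, Ciita and Clec9a were picked for naming once their values had been seen. The part of dendritic cells in Itgax was not tested.

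The remaining pair did not follow the other markers. Spn, which encodes the sialoglycoprotein CD43, lay between 8.91 and 9.30 in the Xist set and between 8.23 and 8.995 in the Y set, so that Y minus Xist was -0.47 (log2), with overlap. Its highest Y-set value, 8.995, was TRIM33 replicate 1 and its lowest, 8.23, TRIM33 replicate 2. Without TRIM33 replicate 1 Spn lay wholly below in the Y set, 1 of 10 markers against 7.72% of all genes on those arrays. Cd300e, an activating receptor of the CD300 family, read 3.56 to 3.96 and 3.47 to 4.66, around the array median, a difference of 0.23 with overlap; the highest value, 4.66, was WT replicate 4, and without that array the difference was 0.098.

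**Figure D3:**
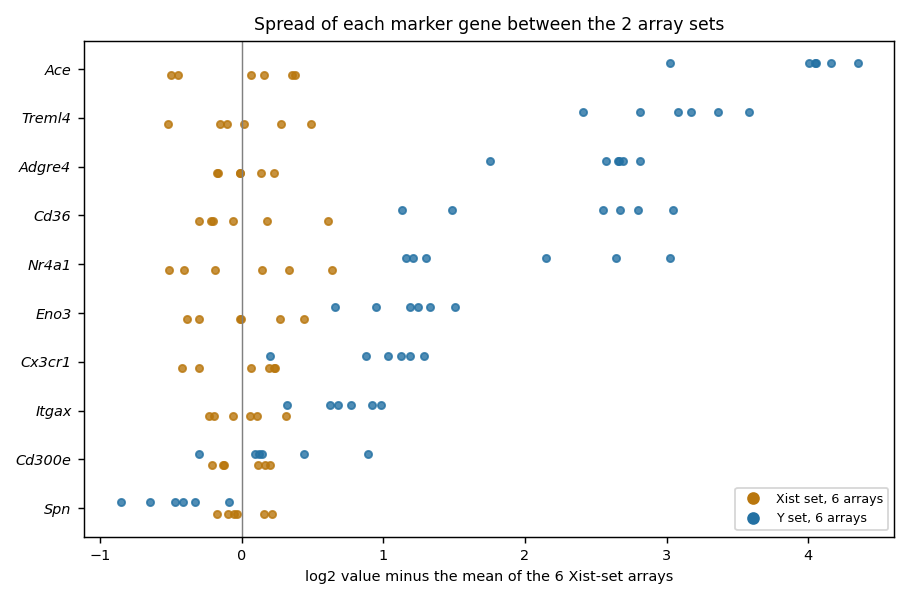
Each marker on each array, in log2 after subtracting its mean over the 6 Xist-set arrays; orange points are the Xist set and blue points the Y set. The sets are parted for 7 of 10 genes, the isolated low Y-set points of Ace and Adgre4 are TRIM33 replicate 2, and Spn runs the other way.

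TRIM33 replicate 2 was the lowest Y-set array for 9 of 10 markers, Itgax being the exception. The share of all genes for which this array is the lowest of the Y set was not counted, so the count is not shown to be particular to the markers. Its shortfall against the mean of the other 5 Y-set arrays was largest for Cd36, at -1.38, and Ace, at -1.10 (log2). The same array had the highest neutrophil list mean of the Y set, 6.34 against 5.08 to 5.51 over 14 genes, and the highest cell cycle mean, 5.76 against 4.86 to 5.15, and the lowest dendritic cell mean, 6.20 against 6.76 to 7.001. The part of these in its marker values was not tested. The neutrophil list mean was higher still in the Xist set, at 7.16 to 7.72, and 8 of its 14 genes lay wholly below in the Y set. The largest of these differences were in granule genes that myeloid precursors also express, Mpo (-6.34), Elane (-6.05), Camp (-3.59) and Prtn3 (-3.49), while Csf3r lay wholly above (1.02) and Retnlg (0.38) and Cxcr2 (0.12) had higher means with overlap. Mpo, Elane, Camp, Prtn3 and Csf3r were likewise picked with their values known, and the part of precursor cells in the set differences of the markers was not tested.

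Of 23 measured genes from a list that holds none of the 10, 22 had a higher mean in the Y set and 16 lay wholly above, with 0 wholly below and a median difference of 0.91 (log2). The largest differences were those of Fcgr4, the IgG receptor typical of Ly6C-low cells, from 5.37 ± 0.828 to 7.47 ± 0.542, and the lipid carrier Fabp4, from 2.72 ± 0.290 to 4.57 ± 0.588 (SD, n = 6). At the other end stood the tetraspanin gene Cd9, at -0.18, and the survival gene Bcl2, at 0.07.

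Of 17 measured regulators of the Ly6C-low fate, 15 had a higher mean in the Y set, 8 lay wholly above in the Y set and 0 wholly below. Hes1, a target of Notch signalling, went from 4.43 ± 0.331 to 6.93 ± 0.898 and the transcription factor gene Maf from 6.18 ± 0.447 to 8.30 ± 0.322 (SD, n = 6). Lower means in the Y set were found for Irf8, a factor of monocyte commitment, at -0.52, and Klf4, at -0.31, both with overlap. Cebpb, on which Ly6C-low cells depend for survival, differed by 0.26 with overlap.

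Ligands and partners of the markers lay wholly above in 7 of 18 genes, led by Icam1, a ligand of leukocyte integrins, at 1.53, and Csf1r, at 1.07; Thbs1, a ligand of CD36, and Icam2 had lower means, by -0.50 and -0.24. Close relatives of the markers lay wholly above in 9 of 25 genes and wholly below in 1. Among them, Cd300ld and Cd300c2, of the family of Cd300e, differed by 2.11 and 1.73, while Treml2 and Trem1, relatives of Treml4, differed by -0.91 and -0.57. Of 19 Ly6C-high genes 6 lay wholly above and 1 wholly below, the latter Ly6a2, at -0.39, with Ly6c1 at -0.67 on dim values. Vcan, at 1.51, and Tmem176a, at 1.28, were the furthest above 0. Natural killer, T and B cell genes lay wholly above in 2 of 12, 3 of 10 and 1 of 8 genes, with list means of 4.03 to 4.48, 3.75 to 4.54 and 3.89 to 4.57 over all arrays. Of 11 macrophage genes 5 lay wholly above.

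**Figure D4:**
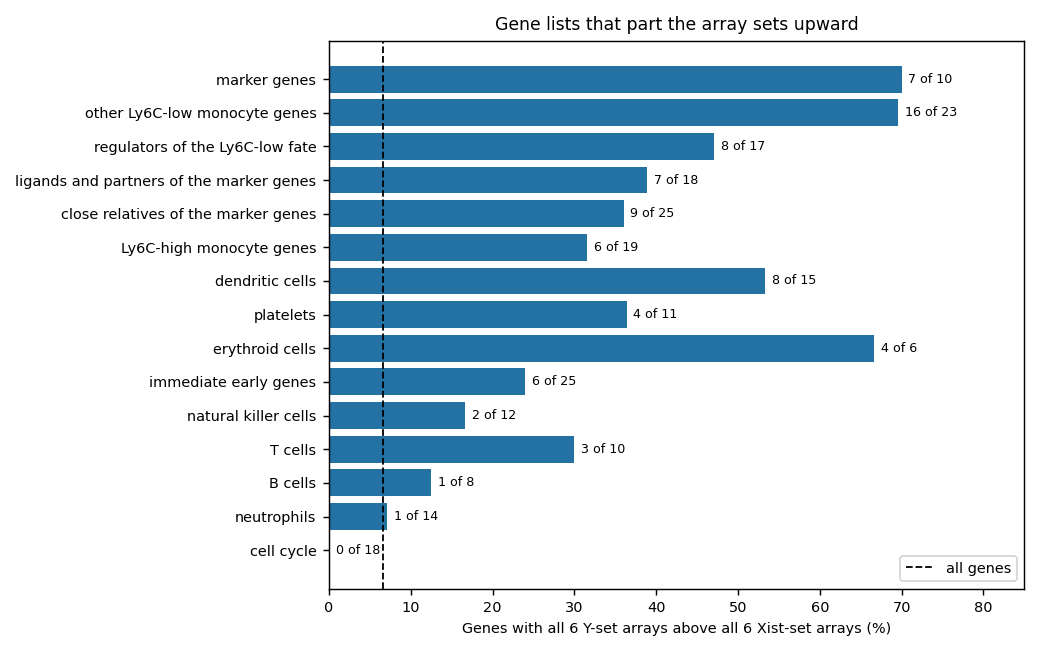
Share of each gene list, in percent, for which all 6 Y-set arrays lay above all 6 Xist-set arrays, with counts beside the bars; the dashed line is the share of all genes, 6.59%. The markers, at 7 of 10, and other Ly6C-low genes, at 16 of 23, stand next to dendritic cell genes at 8 of 15 and erythroid genes at 4 of 6, and cell cycle genes are at 0 of 18.

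For the 7 markers with an SD over the 12 arrays above 0.5, the genes with the nearest profile were sought by the root mean square difference of log2 values centred on each gene's mean. Treml4 was the nearest gene to Ace (0.491), and Adgre4 was among the 3 nearest to both Treml4 (0.368) and Cd36 (0.446). Nearest to Adgre4 were Batf3 (0.228), Cd74 (0.270) and Smpdl3b (0.281), and nearest to Treml4 were Cd74 (0.346) and Pltp (0.359). Nearest to Nr4a1 were Metrnl (0.391), Rasgef1b (0.412) and Jund (0.414), the last an immediate early gene of the list above. Cx3cr1 had Tlr9 (0.163), Ptprj (0.192) and Stk10 (0.193), Eno3 had Gbp9 (0.154), Cd40 (0.167) and Serpinb10 (0.187), and Cd36 had Flt1 (0.371) and Cdc42ep2 (0.406). Kdm5d (0.510), which is Y-linked, and the class II gene H2-Aa (0.522) followed Treml4 for Ace, and all these points share the difference between the sets.

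The comparison of genotypes asks whether monocytes from TRIM33 mice carry more or less of the patrolling programme. Markers called were 0 in either fit: limma with genotype alone called 0 of 10, against 0.0215% of all genes, and, once array set entered as a block, 0 of 10, against 0.0387%. At an unadjusted p under 0.05 there were also 0 of 10 in both fits of all 12 arrays, against 715 and 1229 of 23279 genes. The 5 genes called with genotype alone, named after their values were seen, were Trim33, Apcdd1, Stfa1, Cep83 and A930005H10Rik. The genotypes overlapped for all 10 markers; they did not overlap for 0.198% of all genes. TRIM33 means were lower for 9 of 10, with a median difference of -0.21 (log2), against -0.01 over all genes, of which 55.0% were below 0. With genotype alone this count moved when an array was left out, which also unbalances genotype over the array sets. It was 3 of 10 without WT replicate 4, 4 without TRIM33 replicate 5 and 5 without WT replicate 5 or WT replicate 6. On those arrays 54.8% to 55.8% of all genes were below 0. The count was 10 of 10 without TRIM33 replicate 1 or 3, 9 without WT replicate 1, 2 or 3, and 6 to 8 without any other array. There 52.5% to 55.0% of all genes were below 0. Blocked on array set, the count of lower markers was 9 of 10 without WT replicate 4. It was 6 of 10 without TRIM33 replicate 2 and 7 to 9 without any other array.

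The sizes and their errors bound what these arrays could have shown. The difference was -0.29 for Cd300e (95% interval -0.60 to 0.01, blocked on array set), the smallest p of the markers, with 6 of 6 TRIM33 arrays below the WT mean but values near background (WT 4.03 ± 0.371, TRIM33 3.74 ± 0.183, SD, n = 6; limma, adjusted p = 0.937 in the blocked fit and 0.999984 for genotype alone). For Treml4 it was -0.31 (-0.69 to 0.08), for Cx3cr1 -0.29 (-0.64 to 0.06) and for Adgre4 -0.25 (-0.56 to 0.05). For Nr4a1 it was -0.28 with a wide interval, -0.95 to 0.39. Ace differed by -0.17 (-0.62 to 0.28), Itgax by -0.07 (-0.34 to 0.19), Cd36 by -0.02 (-0.65 to 0.61) and Spn by -0.02 (-0.28 to 0.24). Eno3 alone was above 0, at 0.10 (-0.24 to 0.44). Standard errors were 0.159 to 1.12 with genotype alone and 0.122 to 0.312 with the block, since the former hold the spread between sets.

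**Figure D5:**
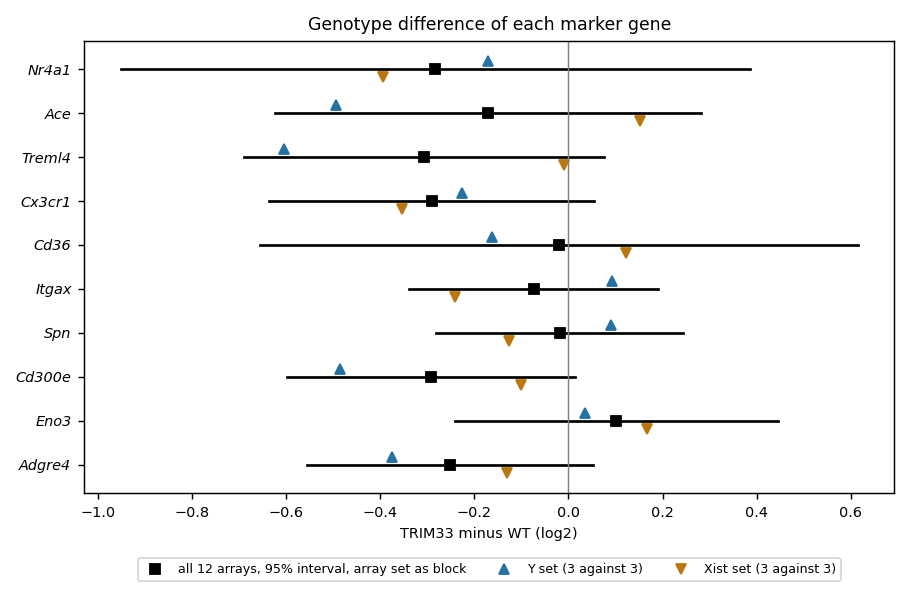
TRIM33 minus WT of each marker in log2: squares are all 12 arrays with 95% intervals from the fit blocked on array set, upward triangles the Y set and downward triangles the Xist set, 3 arrays against 3. All 10 intervals include 0, and 9 of 10 squares lie below it.

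Within the sets the differences were uneven. In the Y set they were -0.60 for Treml4 (SE 0.236), -0.49 for Ace (SE 0.284), -0.49 for Cd300e (SE 0.196) and -0.37 for Adgre4 (SE 0.203), and 7 of 10 were below 0. For 2 of 10 markers the highest TRIM33 array was below the lowest WT array, namely Ace and Treml4, which holds for 5.43% of all genes; for Ace the gap was between 9.27 and 9.28. Without TRIM33 replicate 2 the Y-set difference was -0.43 for Treml4, -0.34 for Cd300e, -0.16 for Ace and -0.08 for Adgre4, that of Cx3cr1 went from -0.23 to 0.09, that of Nr4a1 from -0.17 to 0.16 and that of Cd36 from -0.16 to 0.37, and 4 of 10 were below 0.

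In the Xist set the largest differences were -0.39 for Nr4a1 (SE 0.457), -0.35 for Cx3cr1 (SE 0.236) and -0.24 for Itgax (SE 0.170), and 7 of 10 were below 0; Treml4 was at -0.01 and Ace at 0.15. For 0 of 10 markers did the TRIM33 arrays lie wholly below, against 5.86% of all genes. The test of whether the genotype difference itself differed between sets called 0 of 10 markers by limma, against 0.0043% of all genes, which is 1 gene, Stfa2l1, named after its value was seen; 0 of 10 had an unadjusted p under 0.05, against 981 of all genes. The largest such differences were -0.65 for Ace (SE 0.402) and -0.60 for Treml4 (SE 0.334).

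For genotype there were 0 calls by limma in the lists of other Ly6C-low genes, regulators, ligands and partners, close relatives and Ly6C-high genes in either fit. At an unadjusted p under 0.05 there were 0 with genotype alone, against 3.07% of all genes. Blocked on array set, there were 2 of 23 other Ly6C-low genes, Dusp16 (-0.36) and S1pr5, and 1 of 25 relatives, Cd300ld (-0.25). The share of all genes in that fit was 5.28%, and Dusp16 was named after its value was seen. Other Ly6C-low genes were lower in 13 of 23 and had a median difference of -0.02; the smallest p with genotype alone were those of Bcl2, at -0.32 (SE 0.231), and S1pr5, a sphingosine receptor that Ly6C-low cells need to leave the marrow, at -0.33 (SE 0.279). Regulators were lower in 15 of 17, with a median of -0.14 and Klf4 at -0.30 (SE 0.215) and Cebpb at -0.17 (SE 0.141). Among ligands and partners Tyrobp differed by 0.08 (SE 0.0740) and Agt by -0.10 (SE 0.0911), among relatives Eno4 by 0.21 (SE 0.162) and Eno2 by -0.12 (SE 0.0896), and among Ly6C-high genes Ly6c2 by 0.10 (SE 0.0742) and Plac8 by 0.16 (SE 0.117). Their medians were -0.01, 0.02 and 0.08.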

How the data were processed

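Per the submitters' processing notes, the deposited values are log2 expression values that the authors made with RMA and Partek. For versions, chip definition, genome build and batch steps, the sources used here give nothing. Per the labels' protocols, 900 pg of total RNA was amplified per array. RMA aligns the distributions of probe values between arrays, though array medians of the deposited gene values still ran from 4.16 to 4.25. It compresses differences between dim genes, and amplification from little RNA can add spread. The treatment text of the labels describes T cells, and the source names and the design text, which give monocytes, were followed.

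Of 24479 features, 23281 had 1 symbol, 1198 had none and 0 several; 1 feature was kept where a symbol had more than 1, leaving 23279 genes. Symbols and promoters came from RefSeq tables of GRCm38.p6, used for no position of an array feature. Of 270 listed genes, 19 are not analysed here. limma 3.58.1 (R 4.3.3; lmFit, then eBayes) compared the genotypes over all genes and 12 arrays, with Benjamini-Hochberg adjusted p under 0.05 as the threshold. The array set (Xist above Eif2s3y or not) was a block in another fit and entered an interaction in a further one. The fits were tested on simulated data. Alternatives were other normalizations, filters, variance models, titles, the mix number and each array left out.

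Named genes were all 10 markers, Trim33, the gate genes, from each context list the 2 genes with the smallest p, from the 5 monocyte lists also the 2 with the largest positive and 2 with the largest negative set difference, and the 3 nearest profiles; lists of other cell types are given mainly by counts and ranges. The markers and lists were chosen with earlier results of these data known.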

Additional observations from a re-analysis of the deposited data

Results flagged for a closer look

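Among 40 groups of 6 arrays (each marker in each genotype and in each array set), 3 held an array whose gap to its nearest neighbour exceeded Dixon's 95% critical value as a share of the range. Chance gives about 1 in 20 such gaps in unrelated groups that are each drawn from 1 normal distribution. Here the groups share arrays, and each genotype group spans both array sets. That rate therefore does not apply as it stands, and the count is a description. All 3 concern TRIM33 replicate 2: Ace at 8.25 in the Y set, where the next array read 9.23, Adgre4 at 9.02 in the Y set, where the next read 9.84, and Spn at 8.23 among the TRIM33 arrays, where the next read 8.76.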

How the results depend on the processing

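The markers called by genotype were 0 of 10 under every alternative run, and 0 of 10 by the interaction under those run for it. The count at an unadjusted p under 0.05 by limma was less stable. With the block, 3 of 10 markers passed when TRIM33 replicate 1 was dropped, against 5.88% of all genes. Dropping TRIM33 replicate 6 gave 2 of 10, against 6.01%, and dropping any other array gave 0 or 1. With genotype alone, dropping WT replicate 1 gave 1 of 10, against 2.93%, and dropping any other array gave 0. The sets did not overlap for 7 of 10 markers under both renormalizations and when arrays were left out. The exceptions were 8 without TRIM33 replicate 2 (Cx3cr1 added) and 8 without TRIM33 replicate 1 (Spn, lower, added). Clustering gave the same sets, so that setting repeats the main count and is no check of it. Over all genes the calls were 9 with the array set as a block, 0 by limma without the mixes (565 had an unadjusted p under 0.05), 9 without the mixes and with the block, and 10 in the mixes alone with the mix number as a replicate block; when each array was left out they ran from 5 to 9 with genotype alone and from 9 to 15 with the array set as a block, 15 without TRIM33 replicate 4, 12 without TRIM33 replicate 3, and 9 or 10 otherwise. The mixes share only a number (correlation of same-numbered deviations 0.118). In the replicate block fit of the mixes 4 of 10 markers had an unadjusted p under 0.05 by limma, all lower, against 6.07% of all genes. The smallest adjusted p of the markers there was 0.649 by limma. With so few arrays, the p-values of that fit rest mostly on the variance that limma shares across genes. Of the 2 TRIM33 mixes, 1 is TRIM33 replicate 2, the lowest Y-set array for 9 of 10 markers.

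The sign of several genotype differences changed with the setting; the cause was not tested. Without the mixes Ace was 0.076 and Cd36 0.42, with and without the block. In the mixes alone Itgax was 0.11 and Eno3 -0.22. After renewed quantile normalization Cd36 was 0.0019. With each array left out and genotype alone, the ranges were -0.72 to 0.026 for Nr4a1, -0.67 to 0.31 for Ace, -0.68 to 0.073 for Treml4, -0.35 to 0.36 for Cd36, -0.21 to 0.036 for Itgax, -0.10 to 0.10 for Spn, -0.080 to 0.25 for Eno3 and -0.56 to 0.033 for Adgre4; leaving out an array here also unbalances genotype over the sets. With the block, Ace was 0.013 without TRIM33 replicate 2. Cd36 was then 0.23, and 0.026 and 0.023 without TRIM33 replicates 5 and 6, and 0.017, 0.038 and 0.15 without WT replicates 1, 5 and 6. Spn was 0.065 and 0.00078 without TRIM33 replicates 2 and 4, and 0.026 and 0.014 without WT replicates 1 and 3. Cx3cr1 and Cd300e stayed below 0 in all of these. Cd300e has no value among genes above the median level. Differences between the sets moved by less than the spread within them under all alternatives run, 30 values with all arrays and 120 with an array left out. Leaving out 1 array cannot move a set mean by as much as that spread, so the 120 values could not have come out otherwise. Of the 30, those with sets from clustering repeat the main values, because the sets were the same. Signal near background limits Cd300e, Itgax and, in the Xist set, Cd36.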
